A study of Danio rerio with 4 samples.

Results

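Nuclear hormone receptors, deiodinases and the receptor coregulators of the NCOA and NCOR families were followed in whole-gut RNA of adult zebrafish (Danio rerio). Deiodinases set local thyroid hormone. The members were chosen by gene symbol (the nr subfamilies, ppar, rar, rxr, thr, esr and esrr, vdr, ror, ar, pgr, hnf4, dio, ncoa and ncor genes), which gave 77 of the 14781 genes in the count table. The 77 are 67 receptors, 4 deiodinases, 5 ncoa and ncor genes, and nr2c2ap, whose symbol matches but which encodes a receptor-associated protein and not a receptor. The fish carried the st95 allele of irf8, the gene for a transcription factor needed for macrophage development: 2 were heterozygous and 2 homozygous, all untreated adults per the labels. Both groups therefore carry the mutant allele, and the comparison has no wild-type gut. The tissue was intestine, the design text names 2 animals of each genotype, and the labels give no sex, no hour of collection and no promoter or transgene.

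Nuclear receptors are transcription factors that bind small lipid-soluble ligands, such as thyroid hormone, retinoic acid, steroids, bile acids, oxysterols, fatty acids and haem, and many of them bind DNA as pairs with a retinoid X receptor. Without ligand, several hold corepressors of the NCOR family on their target genes, and ligand binding exchanges these for coactivators of the NCOA family. Deiodinases act one step earlier: the enzyme of dio2 activates the prohormone thyroxine inside the cell, that of dio3 genes inactivates thyroid hormones, and that of dio1 can do either. In the gut, HNF4 and NR5A receptors maintain epithelial genes, FXR and LXR sense bile acids and sterols, and the glucocorticoid receptor mediates the cortisol response.

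Library totals were 6350840 and 10391963 counts in heterozygous replicates 1 and 2 and 6389553 and 9351100 in homozygous replicates 1 and 2. Levels are given as CPM (a gene's count relative to the TMM-scaled size of its library), where 3 counts correspond to 0.277 to 0.512 CPM. The libraries differed in tissue content. Exocrine pancreas markers (20 genes found) made up 1.32% and 29.6% of heterozygous library counts against 4.09% and 0.428% of homozygous ones, and liver markers without apobb.1, a gene that enterocytes also express (27 found), took 0.0200% and 0.570% against 0.0406% and 0.197%. With apobb.1 the liver share was 1.04% and 1.06% against 1.1002% and 3.201%. No gene of either list was at 0 in all libraries. Of the enterocyte markers (27 found) the share was 13.4% and 4.69% against 11.03% and 14.4%. Posterior gut genes, led by the ileal bile acid binding protein gene fabp6, took 1.15% and 1.82% against 0.303% and 0.745%, and the anterior ones 2.87% and 0.653% against 2.60% and 2.59%. Macrophage markers (19 found) took 0.381% and 0.275% against 0.502% and 0.554%, most of it from the apolipoprotein gene apoc1l. Without apoc1l the share was 0.0920% and 0.126% against 0.0600% and 0.0842%, the opposite order. Of the 18 tested markers, 10 were lowest in both homozygous libraries (55.6%, against 19.3% of all genes tested). Another 2 were highest in both (11.1%, against 19.9%). Lymphocyte markers of T and NK cells took 0.00328% and 0.00764% against 0.0329% and 0.0153%. These shares are given again where a result follows them, and their part in any result was not tested. In such bulk RNA, fewer cells of a type and less RNA per cell cannot be told apart. The targeted gene irf8 had 30 and 50 heterozygous counts against 25 and 25 homozygous ones (-0.82 ± 0.58 on the log2 scale).

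The gut expressed a small set of these genes strongly. Per length (RPKM, CPM divided by exon length in kilobases), 54 members averaged at least 1 and 18 at least 10 over the 4 libraries. The highest was nr0b2a, the gene for the small heterodimer partner SHP, a receptor that lacks a DNA-binding domain and represses others, at 176 ± 27.6 RPKM in heterozygotes and 182 ± 84.4 in homozygotes (mean ± SD, n = 2 here and below). Next came dio1 at 107 ± 31.5 and 147 ± 22.5, the NR5A gene nr5a5 at 65.3 ± 31.5 and 117 ± 21.0, and nr1d2a, a gene for a REV-ERB clock repressor, at 51.6 ± 5.01 and 108 ± 42.5. The order of neighbours is not fixed: the SDs of nr0b2a and dio1 overlap in the homozygotes. Those of dio1 and nr5a5, and of nr5a5 and nr1d2a, overlap in both genotypes. All 3 hnf4 genes were among the 18, with hnf4g at 47.8 ± 8.73 and 60.7 ± 14.7, hnf4b at 38.4 ± 7.46 and 62.2 ± 16.1, and hnf4a at 13.9 ± 1.78 and 38.7 ± 32.7 RPKM. Between hnf4b and hnf4a lay the oestrogen receptor gene esr2b (43.1 ± 9.08 and 54.1 ± 15.6) and the bile acid receptor gene nr1h4 (33.4 ± 8.39 and 40.4 ± 5.92), whose SDs overlap in both genotypes.

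**Figure D1:**
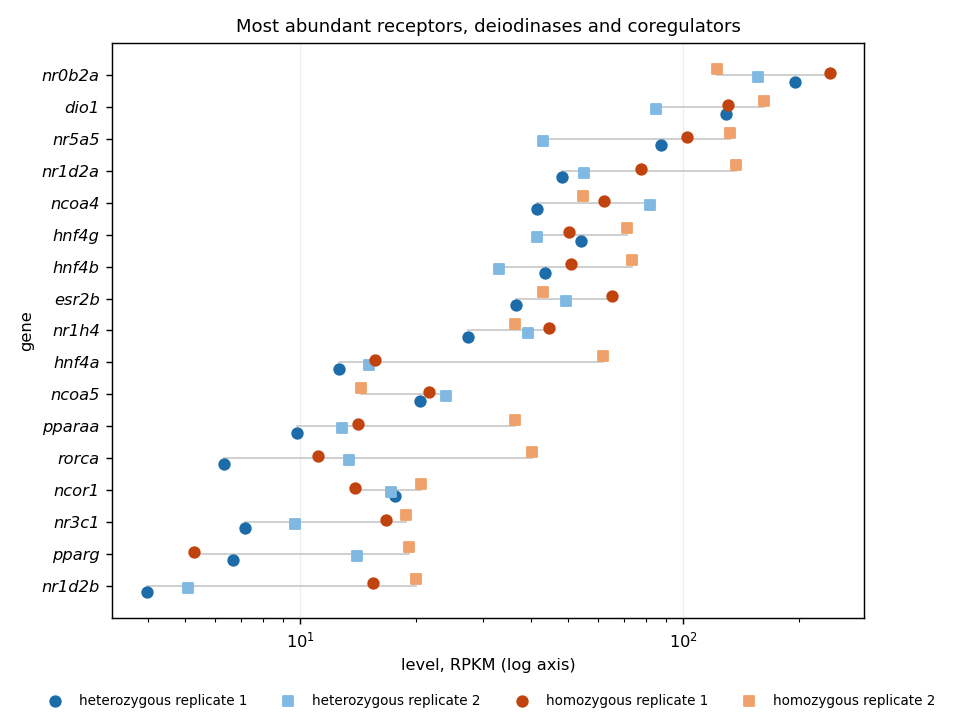
Level per length (RPKM, log axis) of the members that averaged at least 10 RPKM, all but 1 of the 18 drawn, 1 row per gene, with a point for each of the 4 libraries (circles replicate 1, squares replicate 2; blue heterozygous, orange homozygous). The top row, nr0b2a, has its highest and lowest points in the 2 homozygous libraries, and hnf4a has 1 homozygous point far to the right of the other 3.

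Comparing homozygous with heterozygous guts asks which gut transcripts differ between the irf8 genotypes. A filter on low counts kept 56 of the 77 members among 9701 genes. With p-values from edgeR's quasi-likelihood F test, adjusted over all genes (Benjamini-Hochberg, called at 0.05 or less), 0 members were called, against 0 of 9701 genes (0% called), and the lowest adjusted p of a member was 0.699. Unadjusted, 8 members had a p under 0.05, against 6.47% of all genes. Of these, 5 were higher (3.65% of all genes) and 3 lower (2.82% of all genes). DESeq2's Wald test called 58 genes (0.742% of those given an adjusted p), of which 2 are members. They are dio2, called lower (as were 0.32% of the genes given an adjusted p), and nr1d2b, called higher (0.422%). That tool gave 6 tested members no adjusted p. A permutation over the samples could not go below p = 0.333 with 2 fish a group, so single members are described by their values and by whether the libraries of the genotypes overlapped.

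By that description the members leaned upward. In 23 of the 56 both homozygous libraries lay above both heterozygous ones, where 19.9% of all genes did, and in 5 both lay below, where 19.3% of all genes did. The fold change was positive for 39 of 56 members, against 46.7% of all genes, and the median log2 fold change was 0.36 for members and -0.05 for all genes tested. Because the filter admits a gene through the group where it is high, these counts describe the tested members and not all 77. The lean was shared unevenly among roles: all 7 tested clock receptors and all 5 tested steroid receptors had positive fold changes. All 3 tested retinoic acid receptors and all 3 tested NR4A receptors had negative ones. These signs are uneven in weight: the values of esr2b, esr2a, rarab (-0.082 ± 0.44) and nr4a1 (-0.073 ± 0.42) were smaller than their SEs. That of rarga turned to 0.86 without heterozygous replicate 2.

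**Figure D2:**
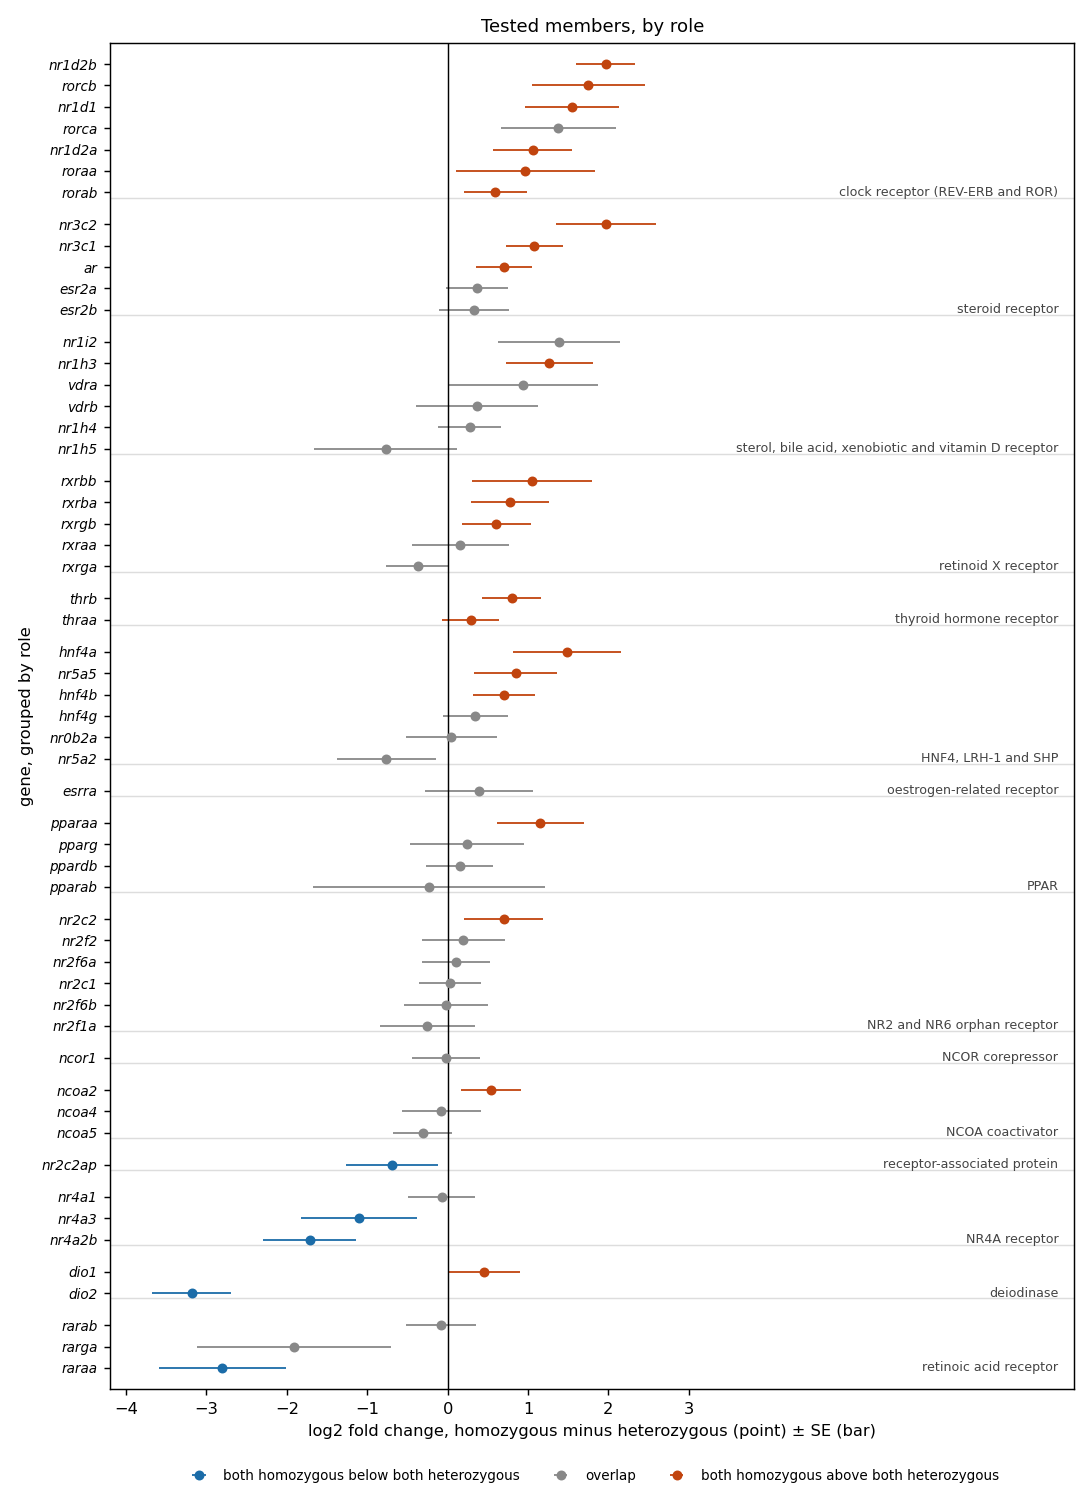
Log2 fold change, homozygous minus heterozygous, of the tested members, all but 1 of the 56 drawn (point) with its SE (bar), grouped by role and ordered by the median of each role. Orange marks members with both homozygous libraries highest, blue those with both lowest (5) and grey those that overlap (28); clock receptors fill the top rows, and dio2 and raraa lie farthest left.

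The deiodinase gene dio2 (chromosome 17, 16865456 to 16868819, plus strand, 2 exons, danRer10) showed the largest difference of any tested member. It stood at 33.5 and 17.7 CPM in the heterozygotes against 2.52 and 3.05 in the homozygotes, from 196 and 162 against 17 and 33 counts. Both homozygous libraries were far below either heterozygous one. The log2 fold change was -3.19 ± 0.50 (SE), 9.10-fold lower, with an edgeR adjusted p of 0.699 and a DESeq2 adjusted p of 0.000694 (range over the alternatives 0.000694 to 0.999). In the authors' deposited table of 76 genes, where dio2 is the 1 member listed, its log2 fold change is -3.25 with an FDR of 0.00328 and a Bonferroni value of 0.0754. The table was deposited with these same libraries and is not an independent measurement. That table does not name its groups, but all 37 of its genes that were tested here have the sign of the homozygous minus heterozygous fit. Leaving out each library in turn gave -3.58 to -2.63, all negative.

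The other deiodinases did not share it. dio1 was abundant in all libraries, at 179 and 117 against 182 and 226, and both homozygous libraries were slightly above both heterozygous ones (0.46 ± 0.44). dio3a had 3 and 2 counts against 13 and 0 and did not pass the filter, and dio3b had 0 counts in every library. Among the receptors for the hormone, thrb stood at 8.19 and 8.97 against 14.8 and 15.04: the replicates of each genotype nearly coincided and the genotypes did not overlap (0.80 ± 0.37, 1.74-fold higher). thraa was at 17.4 and 15.4 against 17.9 and 22.1 (0.29 ± 0.35), also without overlap, but its homozygous libraries differed from each other by more than the genotype means did. Of 6 tested genes of thyroid hormone transport, binding and response, 3 were higher and 3 lower (median 0.01). klf9, a direct target of thyroid and glucocorticoid hormones in vertebrates, stood at 13.1 and 38.5 against 59.08 and 57.9 CPM (1.17 ± 0.56) and did not overlap. The transporter gene slco1d1 (0.40 ± 0.54) and the carrier protein gene ttr (-1.94 ± 1.73) overlapped. ttr, which the liver secretes, was highest in heterozygous replicate 2, the library with the largest liver marker share when apobb.1 is left out. The part of liver content in ttr was not tested.

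Retinoic acid receptors had negative fold changes in all 3 tested genes, but only raraa was free of overlap. raraa (chromosome 12, 11042474 to 11118617, plus strand, 8 exons) stood at 55.6 and 14.8 against 7.11 and 3.05 CPM. Heterozygous replicate 1 was far above heterozygous replicate 2, yet both exceeded both homozygous libraries. The log2 fold change was -2.80 ± 0.79, with an edgeR adjusted p of 0.699 and a DESeq2 adjusted p of 0.0634 (range over the alternatives 0.0634 to 0.999), and it was -1.52 without heterozygous replicate 1. rarga was at 0.683 and 8.75 against 1.63 and 0.923 CPM, so that heterozygous replicate 2 alone was high, and without it the fold change turned from -1.91 to 0.86. rarab, at 18.6 and 12.1 against 11.1 and 17.8, overlapped completely (-0.082 ± 0.44).

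The retinoid X receptors, common partners of the other receptors, had positive fold changes in 4 of 5 tested genes. rxrba (7.51 and 9.41 against 9.62 and 19.3), rxrbb (1.05 ± 0.75) and rxrgb (0.61 ± 0.43) had both homozygous libraries highest (60%, against 19.9% of all genes). The margin of rxrba was small, and its log2 fold change went from 0.77 to 0.18 without homozygous replicate 2. rxrga, the highest of them per length, was at 13.8 and 18.4 against 10.7 and 14.2 (-0.37 ± 0.39), and rxraa overlapped (0.16 ± 0.60). Among 31 tested genes of retinoid metabolism 16 were higher and 15 lower (median 0.05), with 9 and 3 free of overlap. Those are 29.0% above and 9.68% below, against 19.9% and 19.3% of all genes. cyp26a1, the gene for an enzyme that degrades retinoic acid and is itself induced by it, stood at 122.9 and 169 against 72.0 and 43.0 CPM (-1.35 ± 0.45), with both homozygous libraries lowest as for raraa. rbp5, a retinol-binding protein gene, was at 20.8 and 10.7 against 7.11 and 3.60 (-1.56 ± 0.57), and scarb1, the gene for a carotenoid and lipoprotein receptor, went the other way at 18.3 and 14.99 against 36.0 and 57.5 (1.49 ± 0.39). Posterior gut genes, like dio2, raraa and cyp26a1, were lowest in both homozygous libraries by their share of counts (0.303% and 0.745% against 1.15% and 1.82%). So were macrophage markers without apoc1l (0.0600% and 0.0842% against 0.0920% and 0.126%). The same held for endocrine pancreas markers (0.00532% and 0.00630% against 0.00857% and 0.117%) and goblet and enteroendocrine ones (0.0216% and 0.0146% against 0.0246% and 0.0238%). The part of gut region or of these cell types in these genes was not tested.

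**Figure D3:**
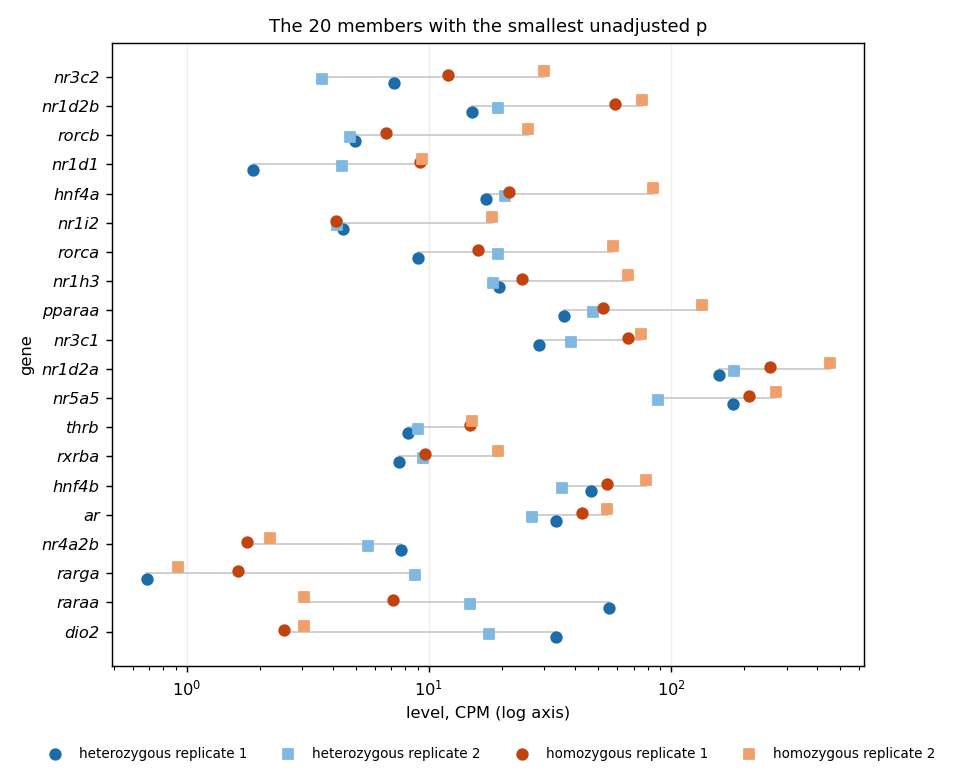
Level (CPM, log axis) in each of the 4 libraries for the 20 members with the smallest unadjusted p, ordered by log2 fold change (circles replicate 1, squares replicate 2; blue heterozygous, orange homozygous). In the bottom rows dio2, raraa and nr4a2b have both homozygous points to the left; in hnf4a, nr1i2, nr1h3 and pparaa only homozygous replicate 2 stands clear to the right.

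Clock receptors had higher values in all 7 tested genes. REV-ERB repressors (nr1d genes) and ROR activators (ror genes) compete for the same DNA elements and tie the clock to metabolism. In 6 of the 7 tested genes (85.7%, against 19.9% of all genes) both homozygous libraries were highest, and the median log2 fold change was 1.38. This share describes the tested genes only, because the filter admits a gene through the group where it is high. Among the 6, roraa reached 10 counts only in the homozygous libraries. The scarce nr1d4a (2 and 9 against 4 and 0 counts) and nr1d4b (2 and 2 against 0 and 1) did not pass the filter. Nor did rorb (2 and 6 against 1 and 12). Of these untested genes, nr1d4b had both homozygous libraries lowest, and nr1d4a and rorb overlapped. nr1d2b (chromosome 19, 17941718 to 17948550, plus strand, 8 exons) stood at 15.02 and 19.3 against 58.5 and 75.7 CPM, with close replicates and a wide gap between genotypes. It was 3.91-fold higher (1.97 ± 0.37), with an edgeR adjusted p of 0.699 and a DESeq2 adjusted p of 0.0125 (range 0.0125 to 0.999), and 1.77 to 2.17 with each library left out.

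The paralogue nr1d2a, far more abundant, was at 158 and 182 against 255 and 453 CPM (1.06 ± 0.49), and nr1d1 at 1.88 and 4.38 against 9.18 and 9.32 (1.54 ± 0.58). In both, the genotypes did not overlap, and the nr1d1 homozygous values nearly coincided. The ror genes differed in their support: rorcb was at 4.95 and 4.70 against 6.66 and 25.7 CPM and rorca at 9.05 and 19.3 against 16.0 and 57.8, so that only homozygous replicate 2 was clearly high. Without that library their log2 fold changes went from 1.75 and 1.38 to 0.46 and 0.17. rorab (21.3 and 23.4 against 25.6 and 42.0, 0.60 ± 0.39) and the scarce roraa (5, 6, 10 and 16 counts) were modestly higher without overlap.

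Other circadian genes leaned the same way. Of 28 tested circadian genes 23 were higher and 5 lower, 18 and 1 of them without overlap, and the median log2 fold change was 0.88. Without overlap, that is 64.3% above and 3.57% below, against 19.9% and 19.3% of all genes. Here too the filter admits a gene through the group where it is high. Without a count filter 21 of 32 (65.6%) were above and 1 (3.12%) below, against 17.7% and 16.7% of all genes. The smallest unadjusted p in that list belonged to the period gene per3 (1.02 and 1.09 against 4.44 and 11.2 CPM, 2.87 ± 0.72). Next were nfil3, a repressor of D-box genes, at 13.5 and 19.6 against 46.2 and 36.4 CPM (1.32 ± 0.38), and bhlhe40, a repressor of E-box genes, at 137 and 139.8 against 274 and 425 (1.34 ± 0.46). The 6 tested genes for the E-box activators themselves, singled out after their values were seen, differed among each other. Both homozygous libraries were highest for clocka (1.47 ± 0.71), clockb (1.07 ± 0.59), npas2 (1.38 ± 0.61) and arntl1b (0.91 ± 0.50) and lowest for arntl2 (-0.49 ± 0.43), and arntl1a overlapped (24.9 and 26.5 against 27.7 and 22.4 CPM, -0.038 ± 0.34). The list's median was 0.49 without homozygous replicate 2 and 1.08 without heterozygous replicate 2. The hour at which each gut was taken is not in the labels, so its part in these values was not tested.

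**Figure D4:**
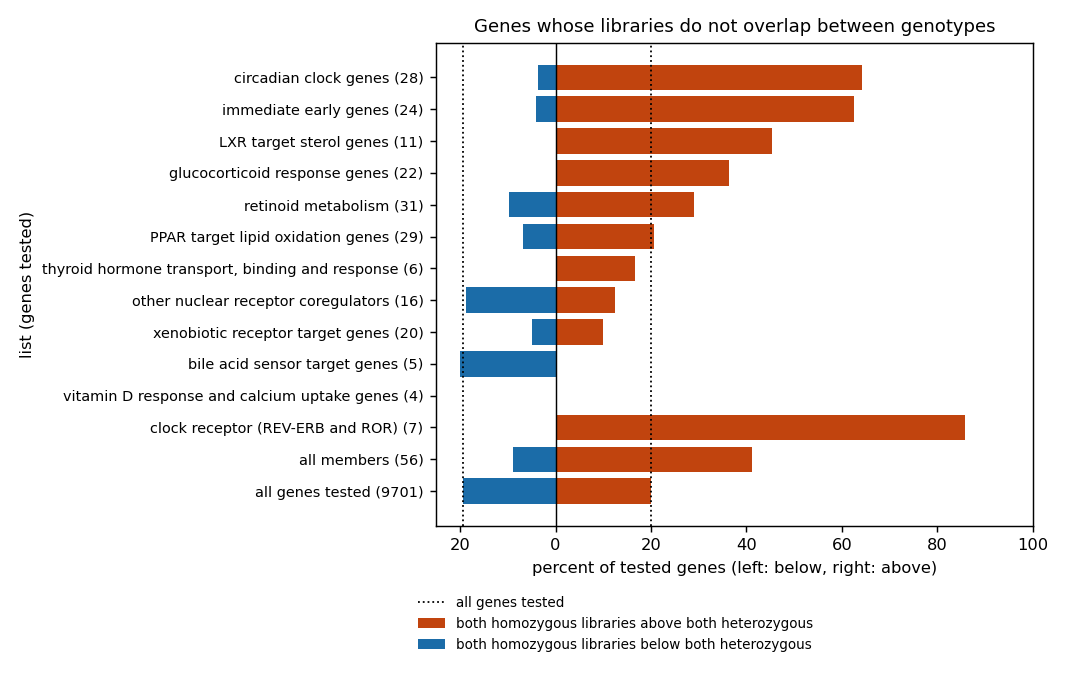
Percent of tested genes in each list whose libraries did not overlap between genotypes, with both homozygous libraries highest (right, orange) or lowest (left, blue); dotted lines mark all 9701 genes (19.9% and 19.3%). The 7 clock receptors, the 28 circadian genes and the 24 immediate early genes reach farthest right, and the bar of the 56 members ends at 41.1%.

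Steroid receptors also had positive fold changes in all 5 tested genes, 3 of them without overlap (60%, against 19.9% of all genes). nr3c1, the glucocorticoid receptor gene (chromosome 14, 23449938 to 23504144, minus strand, 9 exons), stood at 28.5 and 38.6 against 66.6 and 75.4 CPM, 2.11-fold higher (1.08 ± 0.36, edgeR adjusted p 0.699), with replicates closer to each other than to the other genotype. nr3c2, the mineralocorticoid receptor gene, was at 7.17 and 3.61 against 11.99 and 29.8 CPM (1.97 ± 0.62), and its homozygous libraries differed from each other more than homozygous replicate 1 did from heterozygous replicate 1. ar, the androgen receptor gene, stood at 33.5 and 26.6 against 42.8 and 54.6 (0.70 ± 0.35). The oestrogen receptor genes esr2b (99.01 and 134 against 176 and 116, 0.33 ± 0.44) and esr2a (15.4 and 13.9 against 15.3 and 22.4, 0.37 ± 0.38) overlapped. esr1 had 1, 13, 13 and 6 counts and pgr, the progesterone receptor gene, 1, 11, 0 and 1, and neither passed the filter.

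Of 22 tested glucocorticoid response genes 15 were higher and 7 lower (median 0.44), with 8 and 0 free of overlap. Those are 36.4% above and 0% below, against 19.9% and 19.3% of all genes. These shares describe the tested genes, because the filter admits a gene through the group where it is high. Without a count filter 9 of 23 (39.1%) were above and 0 below, against 17.7% and 16.7% of all genes. sgk2a, a kinase gene, was at 61.6 and 60.2 against 117 and 128 CPM (1.01 ± 0.36), with close replicates in each genotype. per1b, a clock and glucocorticoid target gene, was at 1.37 and 3.72 against 6.52 and 8.67 (1.55 ± 0.66), and klf9, given above, belongs here too. Of the genes free of overlap, per1a and per1b are also in the circadian list and dusp1 in the immediate early list. Other genes of the list, singled out after their values were seen, overlapped: sgk1 (-0.58 ± 0.71), tsc22d3 (-0.16 ± 0.60) and fkbp5 (0.36 ± 0.58).

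Among receptors of lipids, sterols and foreign compounds, homozygous replicate 2 stood out. pparaa, the gene for a fatty acid sensor that drives lipid oxidation, stood at 36.2 and 47.5 against 52.1 and 134 CPM (1.15 ± 0.54), nr1h3, the LXR gene, at 19.5 and 18.4 against 24.1 and 66.7 (1.27 ± 0.54), and nr1i2, the pregnane X receptor gene, at 4.44 and 4.16 against 4.15 and 18.2 (1.38 ± 0.76). In each, 3 libraries lay close together and homozygous replicate 2 was high, and without it the log2 fold changes were 0.31, 0.35 and -0.055. Liver markers, whose part in these values was not tested, took their largest share in homozygous replicate 2 with apobb.1 (3.201%) and in heterozygous replicate 2 without it (0.570%). The bile acid receptor gene nr1h4 stood at 56.2 and 80.4 against 91.2 and 74.1 CPM (0.27 ± 0.39), and its relative nr1h5, at 2.05 and 6.56 against 3.85 and 1.29, was highest in heterozygous replicate 2. Among the rest, ppardb (0.15 ± 0.42), pparg (0.24 ± 0.71), pparab (-0.24 ± 1.45) and the vitamin D receptor genes vdra (0.94 ± 0.93) and vdrb (0.37 ± 0.76) all overlapped.

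Target lists of these receptors gave mixed counts. Of 29 PPAR target genes 20 were higher (6 without overlap) and 9 lower (2 without overlap), with a median of 0.30. Without overlap, that is 20.7% above and 6.90% below, against 19.9% and 19.3% of all genes. pdk4, a kinase gene that spares glucose when fat is burned, was at 6.83 and 14.99 against 29.9 and 88.2 CPM (2.43 ± 0.68), pex11g, a peroxisome gene, at 8.19 and 3.72 against 10.96 and 19.3 (1.36 ± 0.57), and the fatty acid binding gene fabp1a was lowest in the homozygotes at 33.97 and 7.22 against 0.592 and 3.32 (-3.33 ± 1.06). Of 11 LXR target genes 6 were higher, 5 of these without overlap, and 5 lower (median 0.49). Without overlap, that is 45.5% above and 0% below, against the same shares of all genes. srebf1, the gene for the regulator of fatty acid synthesis, stood at 14.9 and 15.6 against 27.2 and 84.5 CPM (1.87 ± 0.59), mylipa, which marks lipoprotein receptors for degradation, at 14.9 and 25.7 against 53.0 and 44.0 (1.25 ± 0.41), and the sterol exporter gene abcg8 at 38.1 and 38.8 against 55.97 and 129 (1.27 ± 0.50). In srebf1 and abcg8 homozygous replicate 2 was again the high library, as for nr1h3. Without that library the median was 0.073 for the LXR list and 0.042 for the PPAR list. With any other library left out it was 0.36 to 0.98 and 0.25 to 0.36. The 20 xenobiotic target genes split 8 higher to 12 lower (median -0.22), led by ugt1ab (1.54 ± 0.76), gsta.1 (-1.18 ± 0.64) and abcb4 (0.86 ± 0.52).

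Epithelial receptors of the HNF4 and NR5A families had positive fold changes in 5 of 6 tested genes, counting SHP, whose small value changed sign under a replicate block. hnf4a, a master regulator of enterocyte genes, stood at 17.2 and 20.7 against 21.3 and 84.4 CPM (1.48 ± 0.67), and without homozygous replicate 2 its log2 fold change was 0.17. hnf4b was at 46.6 and 35.3 against 54.3 and 78.6 (0.70 ± 0.38) without overlap, and hnf4g at 100 and 77.1 against 93.3 and 132 (0.35 ± 0.41) with overlap. nr5a5 stood at 179.9 and 88.5 against 211 and 272 CPM (0.85 ± 0.51), lowest in heterozygous replicate 2, the library with the smallest enterocyte share, and its value was 0.42 without that library. nr5a2, the LRH-1 gene, which pancreas and gut epithelium both express, was at 8.02 and 24.1 against 7.404 and 11.53 and highest in that same library, where pancreas markers took 29.6% of counts. Its log2 fold change went from -0.76 with all libraries to 0.24 without heterozygous replicate 2. The part of pancreas or enterocyte content in nr5a2 and nr5a5 was not tested. nr0b2a, at 599 and 479 against 739.6 and 374 CPM, was both highest and lowest in a homozygous library (0.046 ± 0.56).

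NR4A receptors are ligand-independent and are switched on within minutes of many stimuli, like the immediate early genes. nr4a2b stood at 7.68 and 5.58 against 1.78 and 2.21 CPM, 3.29-fold lower (-1.72 ± 0.58), from 45, 51, 12 and 24 counts, and -1.94 to -1.44 with each library left out. nr4a3, at 6.83 and 3.50 against 1.48 and 3.23 (-1.11 ± 0.72), did not overlap either, though by a small margin. nr4a1 was at 14.7 and 14.7 against 17.6 and 10.3 (-0.073 ± 0.42) and overlapped. Of the immediate early list, 23 of 24 tested genes were higher, 15 without overlap, and the median was 0.84. Those 15 are 62.5%, against 19.9% of all genes, and 1 gene was below without overlap (4.17%, against 19.3%). Here too the filter admits a gene through the group where it is high, as for egr2b (0 and 8 against 22 and 30 counts). Without homozygous replicate 1, 18 of 26 tested genes were higher and the median was 0.45. With any other library left out 20 to 23 were higher and the median was 0.98 to 1.09. By their values, junbb (40.8 and 59.8 against 249 and 138 CPM, 1.94 ± 0.49), jund (3.07 and 2.95 against 10.2 and 16.8, 2.16 ± 0.49) and egr1 (10.9 and 31.6 against 158 and 82.3, 2.49 ± 0.66), all early transcription factor genes, had both homozygous libraries highest.

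**Figure D5:**
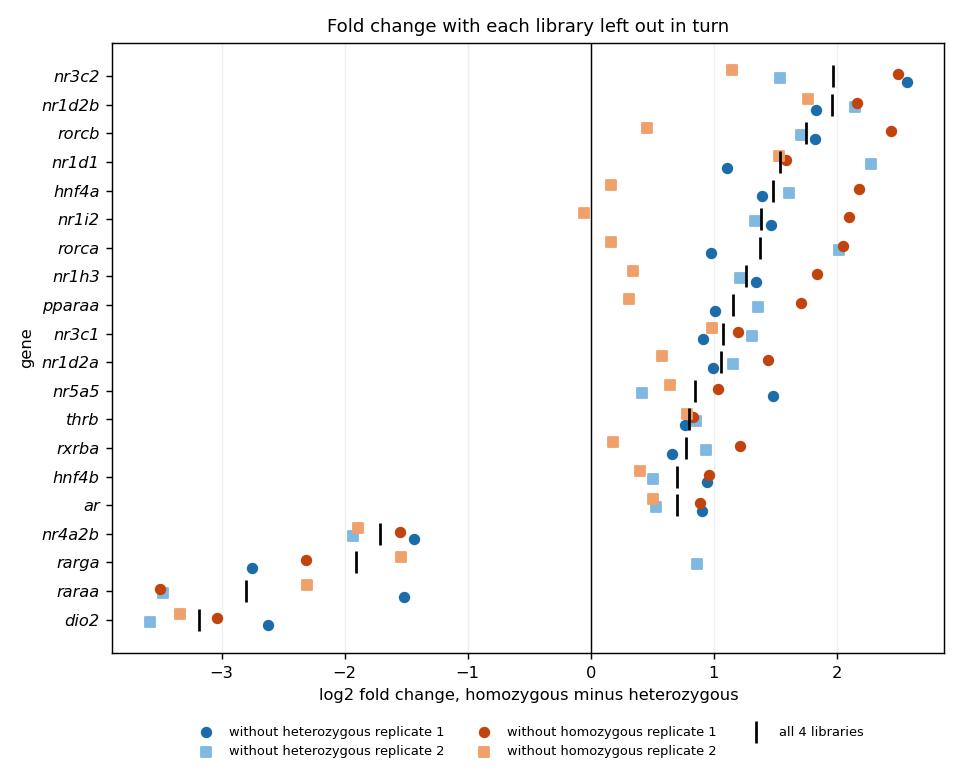
Log2 fold change, homozygous minus heterozygous, of the 20 members with the smallest unadjusted p, from all 4 libraries (black bar) and with each library left out in turn (coloured points, named by the library left out). Without homozygous replicate 2 the points of rorca, hnf4a, nr1i2, nr1h3, pparaa and rxrba lie near 0, whereas those of dio2, nr1d2b, nr3c1, thrb and nr4a2b stay close to their bars. The point of rarga changes sign without heterozygous replicate 2.

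Homozygous replicate 2 was the highest library for 30 of the 56 tested members, against 25.97% of all genes, and exceeded each other library by over 1.5 times for 12 of them, against 9.41% of all genes. Without it 39 of 59 tested members had a positive fold change (44.2% of all genes did), and the median log2 fold change was 0.18, against -0.10 for all genes. Without heterozygous replicate 2 the values were 43 of 58 (53.2%) and 0.52, against 0.08 for all genes. Without heterozygous replicate 1 they were 40 of 60 (50.6%) and 0.39, against 0.01, and without homozygous replicate 1 they were 41 of 60 (44.9%) and 0.61, against -0.12.

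The coregulators described here differed little between genotypes. ncor1 stood at 169 and 165 against 133 and 197 CPM (-0.016 ± 0.42) and overlapped. ncoa4, better known as the receptor that delivers ferritin for breakdown, was at 118 and 234 against 177 and 157 (-0.077 ± 0.49), ncoa5 at 39.3 and 45.8 against 41.3 and 27.5 (-0.31 ± 0.37) and ncoa2, the 1 steroid receptor coactivator of the classical kind among them, at 14.0 and 16.4 against 18.7 and 25.6 (0.54 ± 0.37). Of these 4 coregulators only ncoa2 had both homozygous libraries highest, where 19.9% of all genes did. Among the orphan receptor genes of the NR2 family, nr2f6b (16.9 and 7.11 against 10.8 and 12.7, -0.02 ± 0.52) and nr2c1 (0.03 ± 0.39) overlapped. So did nr2f6a (0.10 ± 0.42), nr2f2 (0.20 ± 0.52) and nr2f1a (-0.25 ± 0.59). In nr2c2 (0.70 ± 0.49) both homozygous libraries were highest. esrra, an oestrogen-related receptor gene of energy metabolism, was at 3.41 and 3.94 against 2.67 and 6.92 (0.39 ± 0.67), and nr2c2ap at 6.999 and 4.16 against 3.55 and 3.32 (-0.69 ± 0.57).

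The 21 members that were not tested had few reads. 6 of them (nr2f1b, nr2e1, esrrga, esrrgb, dio3b and nr5a1a) had 0 counts in every library, and 14 had at most 13 counts in any library. The 14 are dio3a, esr1 and pgr, given above, with rargb, rxrab, nr1d4a, nr1d4b, rorb, nr2e3, nr2f5, nr6a1a, nr6a1b, nr4a2a and nr5a1b. Such counts at these depths show only that the transcripts were scarce in gut. The remaining one, nr0b1, the gene for the SHP relative DAX1, had 0 and 44 heterozygous against 2 and 2 homozygous counts. Its reads came almost wholly from heterozygous replicate 2, the library with the largest share of pancreas markers.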

How the data were processed

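Whole-gut RNA of 4 fish, called total RNA in the sample titles, was sequenced. The authors deposited whole-number gene counts of read pairs, made per the file headers with featureCounts 1.5.2 on exons of the UCSC annotation of danRer10, with strand (setting 2). DESeq2 and R 3.3.1 appear in the submitters' processing notes. No aligner is given in the sources used. Antisense genes were counted separately by this strand setting. The authors also deposited a list of 76 genes with log2 fold changes, p-values (with FDR and Bonferroni forms) and a maximum group mean, a score of unnamed unit. That deposited score was not used.

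Genes were filtered with filterByExpr (minimum count 10, minimum total 15), scaled by TMM, and tested with glmQLFTest of edgeR 4.0.16 in R 4.3.3, genotype being the only term, with Benjamini-Hochberg adjustment over 9701 genes at 0.05. The SE is that implied by F. Because the filter admits a gene through the group where it is high, shares among tested genes describe those genes only. DESeq2 1.42.0 gave the Wald test. Fits were tested on simulated data. Intervals and floors (3 counts) cover counting error only. P-values rest on the spread between these animals, which both tools estimate for each gene with information from the other genes.

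The members and the 23 gene lists (11 pathway, 12 marker) were chosen with earlier results of these data known. Of 574 listed genes 429 were found by name, 28 by synonym (table of GRCz12tu, names only), 9 repeated a gene and 108 were not found. The genes apobb.1, apoc1l, cpa5 and fabp6 were left out of a marker share after their counts were seen. Any member may be named, and 1 is counted but not reported here. Values per library are given for irf8, deiodinases, thyroid hormone receptors, the highest member of each role and the 20 with the smallest unadjusted p, and per-library values of further members were added after they were seen. From each pathway list the 3 genes with the smallest unadjusted p are named. The alternatives were DESeq2 size factors, no count filter, a mean of at least 1 CPM, the Wald test, the other form of the quasi-likelihood fit, a replicate block, leaving out each library or the pancreas and liver genes, and an adjusted p of 0.1. Per the file headers all 4 libraries carry the same lane tag, and the labels give no batch.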

Additional observations from a re-analysis of the deposited data

How the results depend on the processing

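No member was called by edgeR under any alternative. DESeq2's Wald test called 2 members and 58 genes, and with each library left out edgeR called 0 to 45 genes, the 45 without heterozygous replicate 1, where the lone heterozygous library is assumed to vary like the others. Same-numbered libraries share only a number (correlation of deviations 0.0643 over 9701 genes), and with the replicate block 0 genes and 0 members were called. Without a count filter 8 of 71 members (11.3%) were below without overlap, against 16.7% of all genes, and 22 (31%) above, against 17.7%. With 1 library left out, when overlap is rarer for any gene, 9 to 14 members (15.5% to 23.7%) were below, against 30.2% to 38.1% of all genes, and 29 to 34 (48.3% to 56.9%) above, against 29.6% to 38.1%. With 1 library left out the member median ranged from 0.18 to 0.61. For circadian genes the median then ranged from 0.49 to 1.08 and genes below without overlap from 2 to 5 (6.9% to 17.9%). For glucocorticoid response genes those without overlap ranged from 10 to 15 above (43.5% to 68.2%) and 0 to 7 below (0% to 30.4%), against the same all-gene shares. Some genes changed sign, both genes near 0 and genes with larger fold changes. The replicate block gave nr2f6b 0.099, ncoa4 0.0012 and nr0b2a -0.027, and no count filter gave ncor1 0.013. Leave-one-out ranges were -0.53 to 0.76 for nr2f6b, -0.45 to 0.49 for ncoa4, -0.50 to 0.45 for nr0b2a and -0.33 to 0.27 for ncor1. They were -0.47 to 0.94 for esrra, -0.48 to 0.26 for nr4a1, -2.76 to 0.86 for rarga and -0.055 to 2.104 for nr1i2. They also spanned 0 for other members, such as nr5a2 (-1.30 to 0.24), nr1h5 (-1.70 to 0.30) and vdrb (-0.33 to 1.64). Outside the members they were -0.35 to 0.91 for slco1d1, -3.37 to 4.53 for cyp7a1a, -4.13 to 6.1001 for gc, -0.33 to 2.59 for cyp24a1 and -0.37 to 1.0003 for atp2b1a. Without heterozygous replicate 2, gc has 0 heterozygous counts, so its highest value is a fitted one and no bound. The cause of these moves was not tested. Depth limits the members under about 20 counts, where 3 counts are up to 0.512 CPM.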

Other observations

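Bile acid genes, whose sensor is nr1h4, differed widely between libraries. fabp6, the ileal bile acid binding protein gene, stood at 6443 and 11863 against 1506 and 2444 CPM (-2.21 ± 0.84; DESeq2 adjusted p 0.0113, edgeR adjusted p 0.699, range over the alternatives 0.0113 to 0.999). Both homozygous libraries were lowest, as they were for the other posterior gut genes as a sum, without fabp6 (0.144% and 0.462% against 0.559% and 0.776% of counts). slc51a, a bile acid exporter gene, was at 23.0 and 61.6 against 10.1 and 28.4 CPM (-1.13 ± 0.69) and overlapped. cyp7a1a, the rate-limiting enzyme gene of bile acid synthesis in liver, was at 25.4 and 11.6 against 1.78 and 421 CPM (3.52 ± 1.97), so that homozygous replicate 2 alone was high, as it was for the bile acid synthesis gene cyp8b1 (14.7 and 14.6 against 1.63 and 100). slc10a2, the ileal bile acid uptake gene, was at 175 and 497 against 27.2 and 249 CPM (-1.28 ± 1.08) and overlapped. Of 5 tested genes of this list 2 were higher and 3 lower.

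Vitamin D and calcium genes were scarce or variable. Of 4 tested genes 3 were higher and 1 lower, none free of overlap, where 19.9% of all genes were above and 19.3% below. cyp24a1, the gene for the enzyme that inactivates vitamin D, was at 7.68 and 50.2 against 23.1 and 69.9 CPM (0.68 ± 0.94), with replicate 2 of each genotype high. atp2b1a, a calcium pump gene, was at 641 and 254 against 613 and 379.9 CPM (0.15 ± 0.64), and gc, the vitamin D carrier made in liver, at 0 and 16.0 against 0.444 and 1.66 (-2.87 ± 1.86). Of 16 further coregulator genes 7 were higher and 9 lower (median -0.02), with pnrc2 (1.08 ± 0.54), trip4 (-0.47 ± 0.40) and brd8 (0.29 ± 0.34) having the smallest unadjusted p.

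The remaining marker lists took small shares of counts. Neutrophil markers took 0.146% and 1.05% against 0.162% and 0.0709%, most of the 1.05% coming from cpa5, which is also in the exocrine pancreas list. Without cpa5 the share was 0.0712% and 0.0245% against 0.0493% and 0.0575%, lowest in heterozygous replicate 2. Those of stroma and smooth muscle took 0.0554% and 0.310% against 0.336% and 0.0760%. Endocrine pancreas markers took 0.00857% and 0.117% against 0.00532% and 0.00630%, and endothelial ones 0.00798% and 0.0223% against 0.0108% and 0.00582%. Goblet and enteroendocrine markers took 0.0246% and 0.0238% against 0.0216% and 0.0146%, and erythrocyte ones 0.00194% and 0.0623% against 0.0103% and 0.00738%. Heterozygous replicate 2 held the largest endocrine pancreas, endothelial and erythrocyte shares.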
